A study of Mus musculus with 9 samples.

Results

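The transcripts of 10 genes of the hypoxia-inducible factor (HIF) pathway were followed in neutrophils sorted from mouse lung. The 10 were the HIF subunits Hif1a and Arnt, the regulators Vhl, Egln1, Egln2 and Egln3, and the targets Bnip3, Ddit4, P4ha1 and Ndrg1. They were found by gene symbol among 22064 genes listed, of which 18325 had values and 14108, with all 10 among them, passed the filter on low counts. The set was partly chosen by measured values, namely the high level of Egln3 in metastatic over normal lung. The values of these 10 against normal lung are therefore given below as descriptions without p-values. Counts of the 10 past a threshold there are likewise description. The 10 genes and the lists below were also chosen with earlier results of these data known. Their p-values and counts of calls in all comparisons therefore describe these libraries only.

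All mice were female BALB/c. In the metastatic groups, 4T1-LM3 cells, which home to lung and derive from the mouse breast carcinoma line 4T1, had been placed in the mammary fat pad, and the lungs were taken at the macrometastatic stage (MACRO). CD45+ cells were sorted from these lungs by surface Ly6g into Ly6g high neutrophils (3 libraries) and Ly6g low neutrophils (3 libraries), and CD45+ Ly6g high neutrophils were sorted from normal lung (NL, 3 libraries), for which the labels name no tumor. No Ly6g low group from normal lung was among the 9 libraries. The comparison of Ly6g low MACRO with Ly6g high NL libraries therefore changes both the gate and the lung. The labels do not say whether a library came from 1 mouse or from pooled mice, and the p-values measure only the spread between these libraries. That spread was small, with a square root of the median dispersion of 0.0453 in the fit. How much of it is variation between mice cannot be told, so small p-values do not speak for other mice.

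HIF is a heterodimer of an oxygen-regulated alpha subunit and the constant partner Arnt. In oxygenated cells, prolyl hydroxylases of the Egln family mark the alpha subunit, and the Vhl ubiquitin ligase then directs it to the proteasome. When oxygen is scarce the dimer persists and switches on genes for glycolysis, mitophagy, matrix modification and, as feedback, Egln1 and Egln3. In neutrophils the pathway is known for sustaining glycolysis and survival. Its main control acts on protein stability, which transcript levels do not show.

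Estimated counts summed to 15267177 to 17841807 per library. Levels below are CPM (counts scaled to a common library size, with the library sizes adjusted by TMM, whose factors were 0.803 to 1.32). They are given as mean ± SD (n = 3). Within the NL group, replicate 2 stood apart: the chi-square per gene of its counts against the other NL libraries was 5.36 and 4.09, against 1.39 to 2.5 for every other pair within a group. Leaving it out moved no log2 fold change of the 10 genes by more than 0.0765 in Ly6g high MACRO over NL and 0.0793 in Ly6g low MACRO over NL. Ly6g itself, whose protein set the gate, stood at 374 ± 10.8 CPM in Ly6g high and 394 ± 9.32 CPM in Ly6g low MACRO libraries and at 119 ± 1.40 CPM in NL libraries, with a log2 fold change of 0.076 between the MACRO groups that was not called.

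The cell type markers differed strongly between NL and MACRO libraries. The summed level of 12 neutrophil markers was 23652 to 23887 CPM in NL, 104385 to 106891 CPM in Ly6g high MACRO and 89078 to 90900 CPM in Ly6g low MACRO libraries. The 10 epithelial and tumor cell markers summed to 1117 to 1254 CPM in NL against 105 to 110.4 CPM in Ly6g high MACRO and 107 to 113 CPM in Ly6g low MACRO libraries, and all 10 were highest in NL. Endothelial cell and fibroblast markers summed to 1339 to 1432 CPM in NL against 177 to 185 and 206 to 219 CPM, again with all 10 highest in NL. Alveolar macrophage markers summed to 1454 to 1463 CPM in NL, 414 to 428 CPM in Ly6g high MACRO and 134 to 139 CPM in Ly6g low MACRO libraries, with all 12 highest in NL. The list of monocyte and macrophage markers was at 743 to 805, 609 to 620 and 648 to 673 CPM in the same order, that of T, B and NK cell markers at 63.0 to 64.5, 75.4 to 75.9 and 47.8 to 49.0 CPM, and that of eosinophil, basophil and mast cell markers at 78.4 to 85.1, 163 to 171 and 45.8 to 47.6 CPM. The 7 erythroid markers with values summed to 21.2 to 24.7 CPM in NL and to at most 0.495 CPM in MACRO libraries. Cldn4 was at 0 in all Ly6g low MACRO libraries, Hba-a2 in all MACRO libraries, Hbb-b1 in all Ly6g low MACRO libraries, and Hbb-bt in all NL and Ly6g high MACRO libraries. The part of these other transcripts in the comparisons with NL was not tested.

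**Figure D1:**
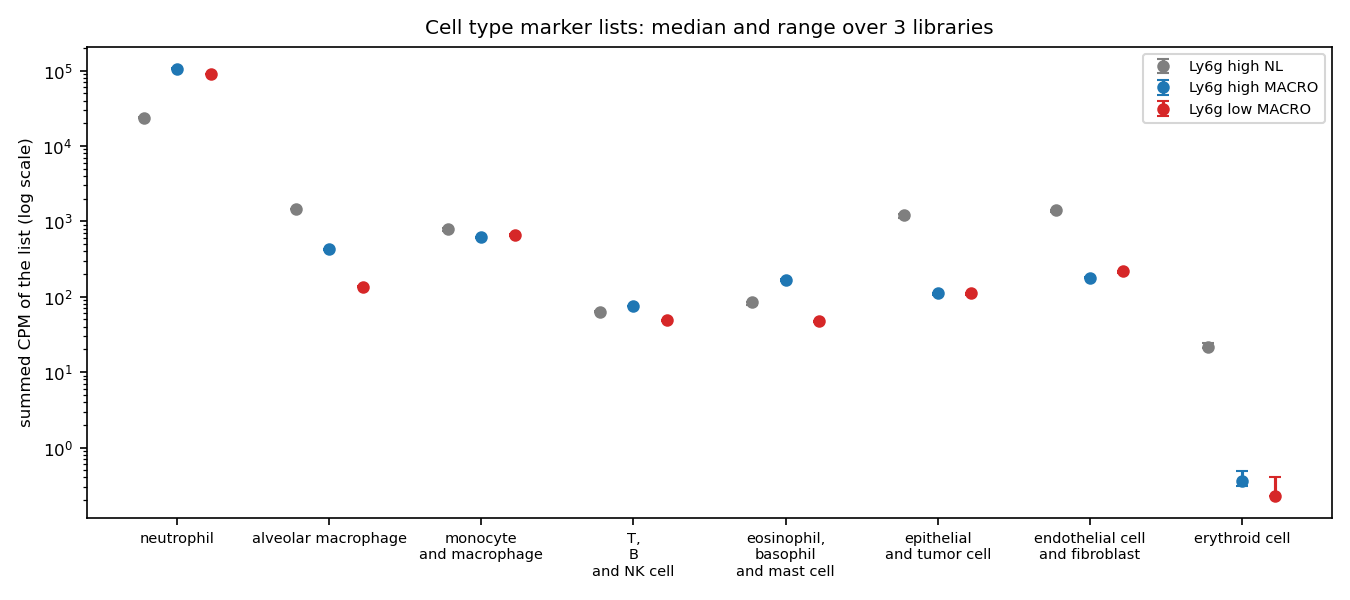
Summed CPM (log axis) of each cell type marker list in NL and MACRO libraries, with points at the median and bars spanning the lowest to highest of 3 libraries. Neutrophil markers are lowest in NL, at 23652 to 23887 CPM, while epithelial, endothelial and fibroblast and alveolar macrophage markers are highest there.

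Promoters of the genes are shown first, since the HIF dimer is known to bind short elements with the core ACGTG or GCGTG. The sequences are RefSeq's for GRCm38.p6, which corresponds to the mm10 build named in the submitters' processing notes. Of the 10 genes, 9 had an entry, with 2 for Egln2. Ndrg1 had none. In the window from 250 bases before to 50 after the start, searched on both strands, ACGTG was present in 7 of these 10 promoters, against 19.6% of all 32851 promoters, and GCGTG in 7 of 10, against 32.4%. Either core was in 9 of 10, against 43.8%, and Vhl held neither. The E-box CACGTG, which other factors also bind, contains ACGTG on both strands and was present in 3 of these 10 promoters, against 7.15% of all. The 250 bases before the start are printed for Egln3, on which the set was partly chosen, and for the targets Bnip3, P4ha1 and Ddit4, 5′ to 3′ on the strand of the gene, with both cores (either strand) in capitals.
Egln3 (chr12:54203875-54204124, minus strand): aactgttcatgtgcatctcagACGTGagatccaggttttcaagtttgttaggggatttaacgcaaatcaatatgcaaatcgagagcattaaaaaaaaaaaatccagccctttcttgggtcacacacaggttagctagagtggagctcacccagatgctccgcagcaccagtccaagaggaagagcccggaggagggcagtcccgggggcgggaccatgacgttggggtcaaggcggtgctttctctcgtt
Bnip3 (chr7:138909507-138909756, minus strand): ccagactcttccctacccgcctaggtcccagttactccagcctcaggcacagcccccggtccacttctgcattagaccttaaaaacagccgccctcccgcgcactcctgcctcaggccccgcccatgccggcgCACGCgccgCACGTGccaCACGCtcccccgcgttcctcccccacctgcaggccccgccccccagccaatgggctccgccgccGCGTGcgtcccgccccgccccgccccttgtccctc
P4ha1 (chr10:59323046-59323295, plus strand): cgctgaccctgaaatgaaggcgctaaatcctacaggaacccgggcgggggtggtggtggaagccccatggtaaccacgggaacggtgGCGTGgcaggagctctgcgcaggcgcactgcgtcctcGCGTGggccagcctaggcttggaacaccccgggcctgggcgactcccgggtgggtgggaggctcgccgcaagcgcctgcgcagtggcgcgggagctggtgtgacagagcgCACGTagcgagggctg
Ddit4 (chr10:59951771-59952020, minus strand): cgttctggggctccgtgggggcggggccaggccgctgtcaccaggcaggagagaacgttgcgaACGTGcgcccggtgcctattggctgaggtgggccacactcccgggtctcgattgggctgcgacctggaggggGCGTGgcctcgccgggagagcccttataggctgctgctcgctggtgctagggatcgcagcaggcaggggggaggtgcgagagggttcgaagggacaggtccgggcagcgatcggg
Counted from the start, Egln3 held a single ACGTG at position -229. Bnip3 held ACGTG on both strands within the E-box at -108, with GCGTG at -117, -99 and -35. P4ha1 held GCGTG at -163 and -126 and ACGTG, on the opposite strand, at -16. Ddit4 held ACGTG at -187 and GCGTG at -115. These matches describe the letters only.

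Positions are those of GRCm38.p6. Hif1a (NCBI Gene 15251) is at chr12:73901324-73947554 and Egln3 (112407) is on the same chromosome at chr12:54178981-54203874. Arnt (11863) is at chr3:95434367-95497240, Vhl (22346) at chr6:113623994-113631634 and Egln1 (112405) at chr8:124908587-124949254. Egln2 (112406) at chr7:27158658-27166802 and Bnip3 (12176) at chr7:138890836-138909506 share a chromosome, as do Ddit4 (74747) at chr10:59949675-59951770 and P4ha1 (18451) at chr10:59323197-59373304. Ndrg1 (17988) is at chr15:66929318-66969641. The values are given per gene, so exons and transcripts were not told apart.

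As fold over its level in NL, Egln3 had the widest range of the 10 genes. It encodes an oxygen-dependent prolyl hydroxylase that acts on HIF alpha subunits and is known for its role in neutrophil survival in hypoxia. Its level was 8.62, 9.81 and 10.2 CPM in NL, 99.5, 93.4 and 88.6 CPM in Ly6g high MACRO and 197, 199 and 191 CPM in Ly6g low MACRO libraries. The 3 groups did not overlap, and the lowest MACRO library stood far above the highest NL library. Per transcript length, the mean FPKM (fragments scaled to transcript length and library depth) was 4.76 ± 0.439 in NL, the lowest of the 10 genes there, and 33.9 ± 1.86 in Ly6g high MACRO libraries, second to Hif1a. The Ly6g low MACRO libraries had 60.04 ± 1.15 FPKM, behind Hif1a and Bnip3.

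The other hydroxylases covered a narrower range. Egln1, the main oxygen sensor for HIF in most cells, had 28.1, 27.3 and 27.7 CPM in NL, 40.4, 42.5 and 42.5 CPM in Ly6g high MACRO and 66.04, 66.3 and 67.2 CPM in Ly6g low MACRO libraries. All 3 groups were apart. Egln2, a family member that is not known as a HIF target, had 29.7, 24.5 and 29.2 CPM in NL, 45.3, 45.2 and 43.02 CPM in Ly6g high MACRO and 48.1, 46.0 and 44.3 CPM in Ly6g low MACRO libraries. Its NL libraries lay below the rest, and its MACRO groups overlapped. NL replicate 2 was the lowest of all 9 libraries for Egln2.

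Of Hif1a and Arnt, Hif1a had the higher FPKM in every group. Hif1a, the oxygen-regulated alpha subunit, had 348, 398 and 355 CPM in NL, 476, 477 and 494 CPM in Ly6g high MACRO and 843, 841 and 904 CPM in Ly6g low MACRO libraries. Its FPKM was the highest of the 10 genes in every group, at 115 ± 9.69 in NL, 109 ± 2.36 in Ly6g high MACRO and 166 ± 7.04 in Ly6g low MACRO libraries. On CPM the 3 groups were apart, whereas on FPKM the NL and Ly6g high MACRO libraries overlapped with the NL mean the higher. Arnt, the constant partner, had 68.1, 69.1 and 70.8 CPM in NL, 104, 108 and 109.995 CPM in Ly6g high MACRO and 147, 146 and 141 CPM in Ly6g low MACRO libraries.

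Vhl, the substrate receptor of the ubiquitin ligase that removes HIF alpha, had the lowest mean FPKM of the 10 genes in NL after Egln3. It had 17.8, 16.2 and 16.8 CPM in NL, 39.3, 43.03 and 43.8 CPM in Ly6g high MACRO and 52.1, 60.0 and 58.9 CPM in Ly6g low MACRO libraries. For Vhl and Arnt the 3 groups were apart on CPM and on FPKM.

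Of the targets, Bnip3, P4ha1 and Ddit4 covered a wide range over the groups and Ndrg1 a narrow one. Bnip3, a receptor on the outer mitochondrial membrane for mitophagy, had 17.5, 19.8 and 18.6 CPM in NL, 58.2, 60.6 and 57.8 CPM in Ly6g high MACRO and 139, 139 and 146 CPM in Ly6g low MACRO libraries. P4ha1, the catalytic subunit of a collagen prolyl 4-hydroxylase, had 46.9, 49.3 and 42.5 CPM in NL, 87.5, 86.0 and 87.5 CPM in Ly6g high MACRO and 182, 185 and 179 CPM in Ly6g low MACRO libraries. Ddit4, also known as REDD1, a stress-induced inhibitor of mTORC1 that glucocorticoids also induce, had 20.9, 19.5 and 23.5 CPM in NL, 47.4, 43.9 and 43.6 CPM in Ly6g high MACRO and 84.5, 80.5 and 76.8 CPM in Ly6g low MACRO libraries. For these 3 genes no libraries of different groups overlapped, on CPM or on FPKM.

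Ndrg1, a cytoplasmic protein induced by hypoxia and other stresses in many cells, had 54.1, 51.01 and 54.6 CPM in NL, 61.6, 61.8 and 58.7 CPM in Ly6g high MACRO and 66.04, 62.4 and 65.5 CPM in Ly6g low MACRO libraries. The groups were apart by a small distance. On FPKM the order was turned round, with 24.5 ± 0.681 in NL, 20.3 ± 0.552 in Ly6g high MACRO and 18.3 ± 0.604 in Ly6g low MACRO libraries.

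On CPM, the order Ly6g low MACRO, Ly6g high MACRO, NL held for all 10 genes, with the neighbours apart except for Egln2 in the MACRO groups. On FPKM it held for 7 of the 10, with Hif1a, Egln2 and Ndrg1 as the exceptions. Since the sample is a bulk of sorted cells, fewer cells of a type and less RNA per cell cannot be told apart.

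**Figure D2:**
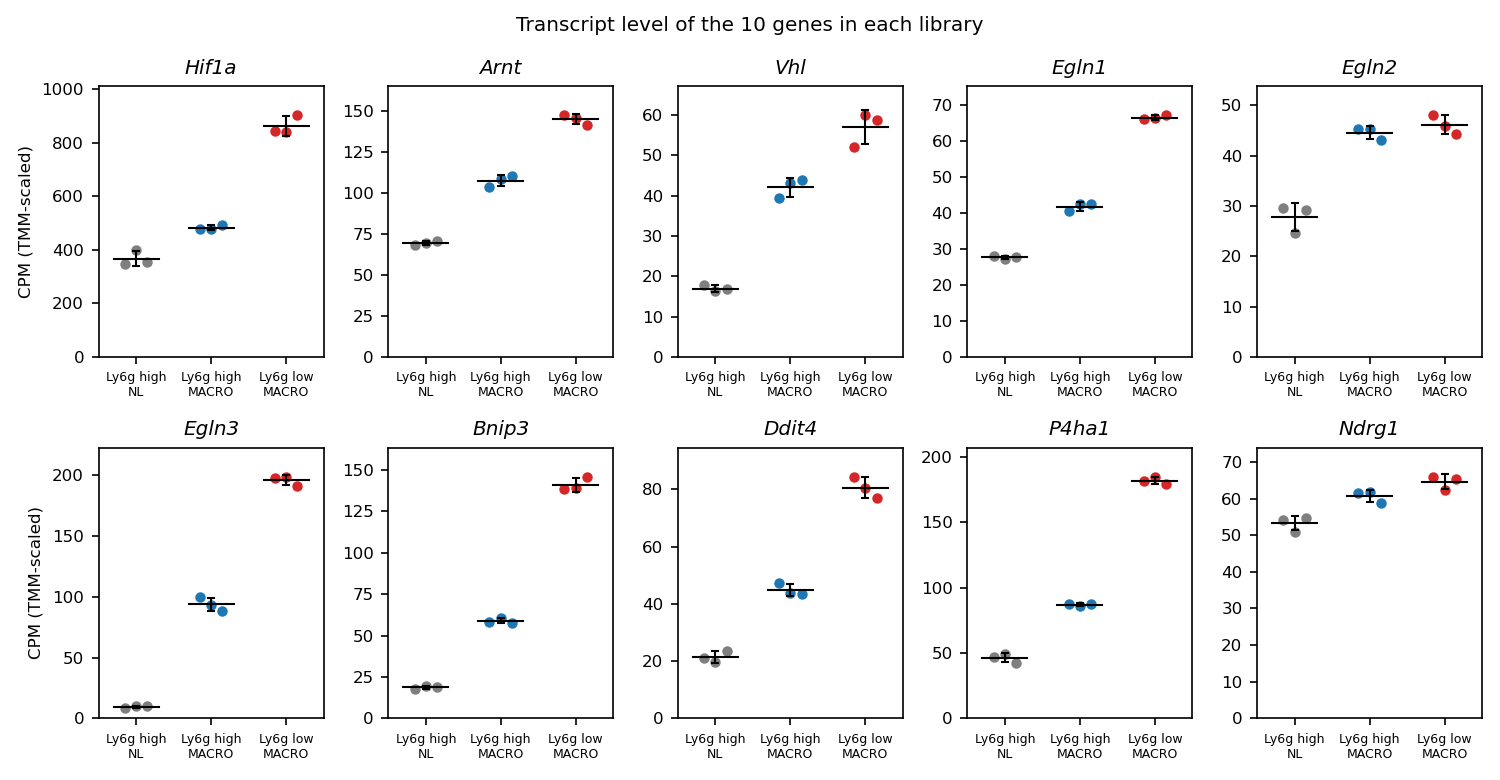
Level of each of the 10 genes in CPM (linear axis from 0, scaled for each gene) in NL, Ly6g high MACRO and Ly6g low MACRO libraries; points are libraries, horizontal lines group means and bars SD (n = 3). Egln3 stands at 9.55, 93.8 and 196 CPM on average, while Ndrg1 stays between 51.01 and 66.04 CPM.

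Within the macrometastatic lung, the comparison of Ly6g low with Ly6g high neutrophils asks how the gates differ at the same stage. A gene was called when its edgeR adjusted p was 0.05 or less and its log2 fold change exceeded 0.58 in size. By this rule 6 of the 10 genes were higher in Ly6g low neutrophils and 0 lower. Of all 14108 genes tested, 9.29% were called higher and 15.9% lower. In 9 of the 10 genes every Ly6g low library lay above every Ly6g high library, and the groups did not overlap in either direction in 62.1% of all genes. The median log2 fold change of the 10 was 0.75, against -0.041 for all genes.

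Bnip3 changed most, at 1.26 on the log2 scale (SE 0.046, edgeR adjusted p = 9.39e-16), or 2.40-fold. P4ha1 rose by 1.06 (SE 0.045, edgeR adjusted p = 1.18e-14) and Egln3 by 1.06 (SE 0.046, edgeR adjusted p = 1.62e-14) on the log2 scale, so that each was about 2.09-fold higher. Ddit4 followed at 0.84 (SE 0.059, edgeR adjusted p = 6.04e-11) and Hif1a at 0.84 (SE 0.043, edgeR adjusted p = 2.58e-13). Egln1 rose by 0.67 (SE 0.048, edgeR adjusted p = 9.66e-11). These 6 hold the alpha subunit, its hydroxylases Egln1 and Egln3 and the targets other than Ndrg1.

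Arnt, at 0.43 (SE 0.040, edgeR adjusted p = 4.63e-09), and Vhl, at 0.44 (SE 0.061, edgeR adjusted p = 2.48e-06), passed the adjusted p but not the fold-change threshold. Egln2, at 0.05 (SE 0.064, edgeR adjusted p = 0.538), and Ndrg1, at 0.09 (SE 0.049, edgeR adjusted p = 0.122), passed neither. Their FPKM pointed the other way, with log2 differences of -0.18 for Egln2 and -0.14 for Ndrg1 (limma adjusted p = 0.0239 and 0.0105). On FPKM, Egln1 fell short of the threshold at 0.40, and the other 5 genes stayed above it.

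The median of all genes also differed between counts and FPKM, which had a filter and a gene set of their own. On the 11820 genes past the FPKM filter it went from -0.041 to -0.19 in this comparison, from -0.088 to -0.33 in Ly6g high MACRO over NL and from -0.16 to -0.56 in Ly6g low MACRO over NL. Without the FPKM filter (18317 genes) it was -0.051, -0.15 and -0.25 in the same order. Genes called higher made up 36.8% of all calls on counts and 14.4% on FPKM here, 41.8% and 23.5% in Ly6g high MACRO over NL, where upper-quartile normalization gave 32.4%, and 41.3% and 16.1% in Ly6g low MACRO over NL. All 10 lay above the median of all genes in each of the 3 comparisons on counts and on filtered FPKM, but against the unfiltered FPKM median Egln2 and Ndrg1 lay below it between the MACRO groups, and Ndrg1 also in both comparisons with NL. For Egln2 and Ndrg1 between the MACRO groups this distance was 0.091 and 0.13 on counts and 0.0054 and 0.052 on filtered FPKM. FPKM came from the same libraries and were not adjusted by the TMM factors used for CPM. These factors were 0.945 to 0.950 in Ly6g high MACRO, 0.803 to 0.807 in Ly6g low MACRO and 1.30 to 1.32 in NL libraries. Their part in the differences between counts and FPKM was not tested.

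The neutrophil markers did not move as a block between the MACRO groups. Their log2 fold changes ran from -1.91 for Ltf to 0.89 for Retnlg with a median of 0.033. Of the 12, 4 were called higher (Csf3r, Cxcr2, Retnlg and Mmp8) and 2 lower (Ngp and Ltf, granule genes of immature neutrophils). Markers of several other cell types were lower in Ly6g low libraries: 9 of 12 alveolar macrophage markers, 8 of 9 tested markers of eosinophils, basophils and mast cells and 7 of 9 of T, B and NK cells were called lower and 0 higher. For the other lists, 3 of 10 epithelial and tumor cell markers, 2 of 10 monocyte and macrophage markers, 1 of 3 tested erythroid markers and 0 of 10 endothelial cell and fibroblast markers were lower, and 0 of each were higher. The summed level of the monocyte and macrophage list (648 to 673 against 609 to 620 CPM) and of the endothelial cell and fibroblast list (206 to 219 against 177 to 185 CPM) was higher in Ly6g low libraries. The part of all these transcripts in the differences of the 10 genes was not tested.

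**Figure D3:**
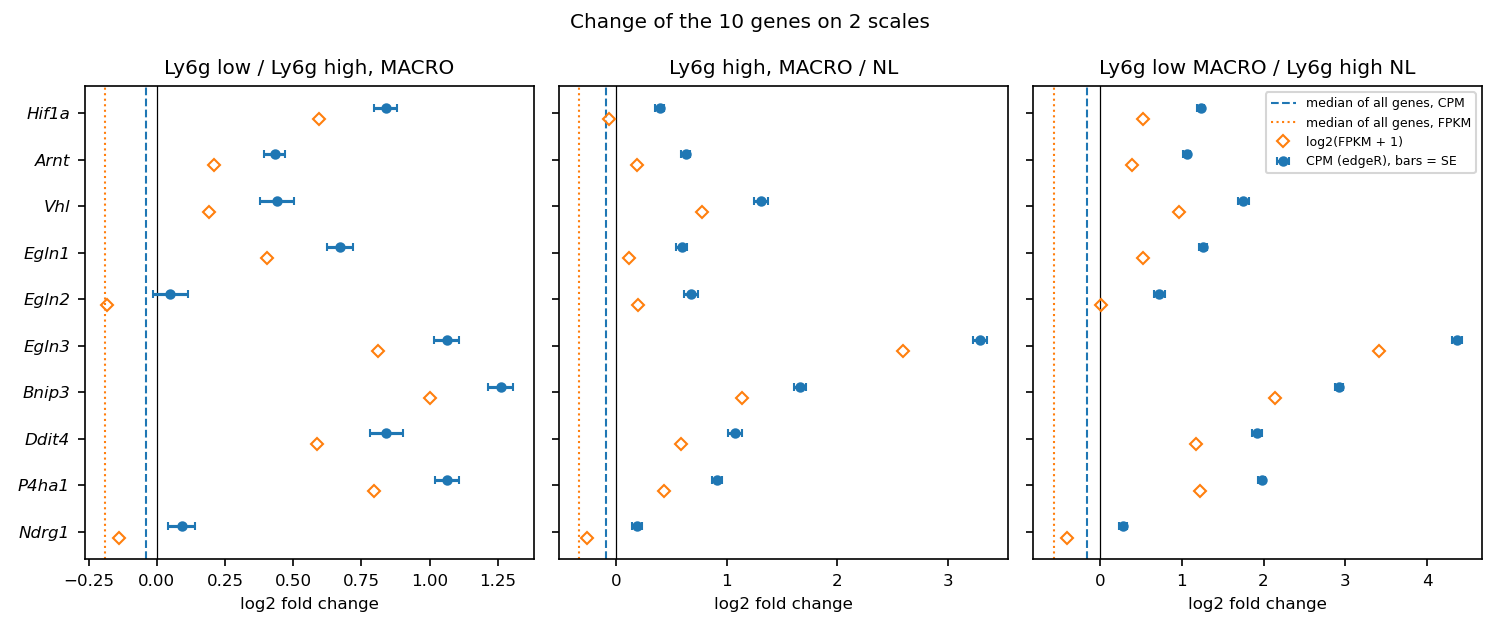
Log2 fold change of each gene in the 3 comparisons, from counts (edgeR, circles with SE bars) and as the difference in log2(FPKM + 1) (diamonds); the vertical lines mark 0 and the median of all genes on each scale, past its own filter. Every FPKM value lies to the left of its count value, as does the median of all genes, and Egln3 lies farthest to the right in both comparisons with NL.

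For Ly6g high neutrophils, MACRO libraries were set against NL libraries. All 10 genes were higher in every MACRO library than in every NL library, 8 of them past the call thresholds. Over all genes, 26.3% were called higher, 36.6% lower and 85.2% had groups that did not overlap. The call rule includes an adjusted p, but the 10 were picked partly on this contrast, so these counts are description and no test. Egln3 led with a log2 fold change of 3.30 (SE 0.063), or 9.82-fold, rank 41 of 14108. Bnip3 followed at 1.66 (SE 0.055) and Vhl at 1.31 (SE 0.067).

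Ddit4 stood at 1.08 (SE 0.066) and P4ha1 at 0.91 (SE 0.048). Egln2 had 0.68 (SE 0.064), Arnt 0.63 (SE 0.040) and Egln1 0.59 (SE 0.051), close above the threshold. Hif1a, at 0.39 (SE 0.043), and Ndrg1, at 0.19 (SE 0.047), were below it. The median of the 10 was 0.80, against -0.088 for all genes. With upper-quartile normalization or a filter of 10 counts in every library 5 of the 10 were past the thresholds, without Arnt, Egln1 and Egln2. On FPKM, Hif1a turned to -0.07 and Ndrg1 to -0.26, with Ndrg1 also at -0.003 under upper-quartile normalization. On FPKM 4 genes stayed above the threshold, namely Vhl, Egln3, Bnip3 and Ddit4, the last at 0.59.

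Ly6g low MACRO against Ly6g high NL libraries gave larger differences. The NL libraries are the same as in the preceding comparison, so these values and counts are again description and not a second test. Of the 10 genes, 9 were past the call thresholds, against 28.7% of all genes called higher, 40.8% called lower and 86.8% with groups that did not overlap. Egln3 stood at 4.36 (SE 0.060), or 20.5-fold, rank 12 of 14108. Bnip3 stood at 2.92 (SE 0.051), P4ha1 at 1.98 (SE 0.047) and Ddit4 at 1.92 (SE 0.063).

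Vhl had 1.75 (SE 0.067), Egln1 1.26 (SE 0.049), Hif1a 1.23 (SE 0.043), Arnt 1.06 (SE 0.040) and Egln2 0.73 (SE 0.066). Ndrg1, at 0.28 (SE 0.048), was the gene below the threshold. The median of the 10 was 1.51, against -0.16 for all genes. On FPKM, 5 genes stayed past the thresholds (Vhl, Egln3, Bnip3, Ddit4 and P4ha1), and Ndrg1 turned to -0.40.

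The neutrophil markers moved in the same direction as the 10 genes against NL. All 12 were called higher in either MACRO group, with log2 fold changes of 0.81 to 2.72 and a median of 1.80 in Ly6g high MACRO, and of 0.81 to 2.56 and a median of 1.94 in Ly6g low MACRO libraries. Less that median, 1 of the 10 genes, Egln3, was above 0 in Ly6g high MACRO libraries, at 1.5. For Ly6g low MACRO libraries 3 were, with Egln3 at 2.41, Bnip3 at 0.98 and P4ha1 at 0.033. This scale was added after the data were seen, and the part of the markers in the differences was not tested.

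By likeness of profile, the genes closest to Egln3 were Nos2, Casp6, Ambp, Stfa2 and Gpr15. Likeness was the root mean square difference in centred log2 CPM over the 9 libraries, among 8462 genes with at least 10 CPM in their highest group. Nos2, which encodes inducible nitric oxide synthase, was nearest at 0.14, with 36.6 ± 0.708 CPM in NL, 313 ± 7.66 CPM in Ly6g high MACRO and 791 ± 17.7 CPM in Ly6g low MACRO libraries. Casp6, an executioner caspase, came next at 0.21, with 6.90 ± 0.846, 93.8 ± 1.05 and 179 ± 8.99 CPM in the same order. Ambp stood at 0.30, with 0.783 ± 0.142, 6.84 ± 0.868 and 11.3 ± 0.670 CPM. Stfa2, a stefin of mouse neutrophils, stood at 0.31, with 104 ± 6.21, 1279 ± 24.6 and 1601 ± 38.5 CPM. Gpr15, a chemoattractant receptor, stood at 0.36, with 0.919 ± 0.0217, 11.8 ± 0.711 and 14.0 ± 0.613 CPM. Ambp and Gpr15 were thus near the floor in NL and reached 10 CPM only in MACRO libraries.

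Within the 10 genes, Bnip3 was the nearest to Egln3 at 0.73 and Ndrg1 the farthest at 1.74, so the 5 closest genes came from outside the set. The likeness is a description over libraries that share 3 groups.

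**Figure D4:**
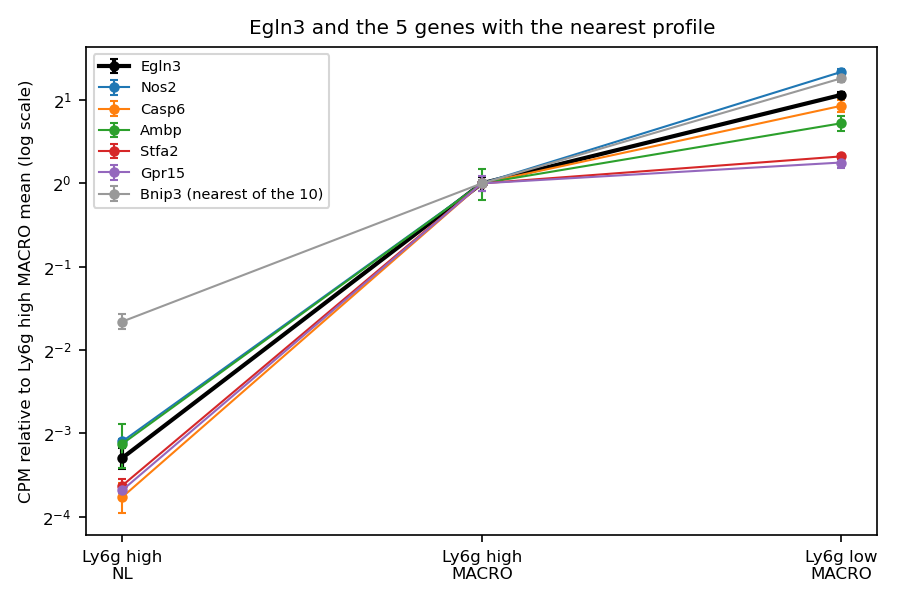
Mean CPM of Egln3, the 5 genes of nearest profile and Bnip3, each divided by its own mean in Ly6g high MACRO libraries (log axis; bars are SD on the same scale, n = 3). Egln3 and its 5 neighbours all fall steeply towards NL, Bnip3 less so.

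Lists of other genes around the pathway give the setting of the 10. The genes named from them were mostly those of largest change, so their p-values follow that choice and are not independent tests. The other HIF pathway components covered the remaining subunits, hydroxylases, ligase parts and coactivators. Between the MACRO groups, 0 of 18 tested were called higher and 3 (16.7%) lower, against 9.29% and 15.9% of all genes. The 3 were Rack1 (log2 fold change -0.68) and, at lower levels and named here after their values were seen, Siah2 (-0.64) and Usp20 (-0.88). In Ly6g high MACRO over NL, 5 (27.8%) were higher, close to the 26.3% of all genes, and 5 (27.8%) lower, against 36.6%. Cited2, a competitor of HIF for its coactivator, rose by 1.28 (SE 0.056, edgeR adjusted p = 2.59e-15), the factor-inhibiting hydroxylase Hif1an by 0.98 (SE 0.057, edgeR adjusted p = 5.18e-13) and the coactivator Ep300 by 0.88 (SE 0.035, edgeR adjusted p = 6.44e-16) on the log2 scale. Hif1an and Ep300 lost their call on FPKM.

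Epas1, the alpha subunit HIF-2 alpha, is known to be expressed strongly by endothelial cells. It fell from 657 ± 28.4 CPM in NL to 75.4 ± 3.99 CPM in Ly6g high and 86.5 ± 2.11 CPM in Ly6g low MACRO libraries. For Ly6g high neutrophils the difference was -3.12 on the log2 scale (SE 0.043, edgeR adjusted p = 1.2e-23). Endothelial cell and fibroblast, epithelial and alveolar macrophage markers were also highest in NL, and their part was not tested. In Ly6g low MACRO over NL, 7 components were higher and 7 lower (38.9% each), against 28.7% and 40.8% of all genes. The elongin subunits Eloc, at 1.15, and Elob, at 1.03, were among the higher on counts but not on FPKM.

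Glycolytic hypoxia targets were the list with the largest share called higher in each comparison. Between the MACRO groups 8 of 20 (40%) were higher and 0 lower, against 9.29% and 15.9% of all genes. Pfkfb3, which makes the activator of phosphofructokinase, rose from 472 ± 7.84 to 1153 ± 13.5 CPM, or by 1.29 on the log2 scale (SE 0.030, edgeR adjusted p = 6.58e-19). Slc16a3, a lactate exporter, rose by 1.18 (SE 0.042, edgeR adjusted p = 7.17e-16) and Slc2a1, the glucose transporter GLUT1, by 1.03 (SE 0.034, edgeR adjusted p = 1.97e-16) on the log2 scale. On FPKM 3 of the 20 were called higher and 1 lower.

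Against NL, 14 of the 20 glycolytic genes (70%) were higher and 0 lower in Ly6g high MACRO libraries. The shares of all genes were 26.3% and 36.6%. In Ly6g low MACRO libraries 18 (90%) were higher and 1 (5%) lower, against 28.7% and 40.8% of all genes. The glycolytic enzymes Gpi1 (log2 fold change 2.04, edgeR adjusted p = 9.16e-22), Eno1 (1.91, edgeR adjusted p = 1.35e-20) and Tpi1 (1.90, edgeR adjusted p = 1.64e-21) led in Ly6g high neutrophils. Tpi1 in Ly6g low MACRO libraries stood at 2.61 (SE 0.036, edgeR adjusted p = 8.24e-24) and Pfkfb3 at 2.54 (SE 0.031, edgeR adjusted p = 1.6e-24) over NL. Hk2, a hexokinase, was the 1 lower, at -0.60, and lost the call under DESeq2, under its size factors and without Ly6g low MACRO replicate 1. The median log2 fold change of the list was 0.35 between the MACRO groups, 1.45 in Ly6g high MACRO over NL and 1.75 in Ly6g low MACRO over NL. The neutrophil markers, with medians of 0.033, 1.80 and 1.94, moved with it against NL, and their part was not tested. On FPKM 2 of the 20 were called lower in Ly6g high MACRO over NL.

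Of the other hypoxia targets, 7 of 38 tested (18.4%) were higher and 3 (7.89%) lower between the MACRO groups, against 9.29% and 15.9% of all genes. Ankrd37 rose by 1.19 (SE 0.079, edgeR adjusted p = 2.66e-11), Fam162a by 1.14 (SE 0.071, edgeR adjusted p = 7.6e-12) and Hilpda, a lipid droplet protein, by 1.14 (SE 0.042, edgeR adjusted p = 1.37e-15) on the log2 scale.

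In Ly6g high MACRO over NL, 11 of these targets (28.9%) were higher and 14 (36.8%) lower, close to the 26.3% and 36.6% of all genes. Narf rose by 2.59 (SE 0.047, edgeR adjusted p = 7.42e-22), Gys1, a glycogen synthase, by 2.47 (SE 0.054, edgeR adjusted p = 1.53e-20) and Ccng2 by 1.41 (SE 0.038, edgeR adjusted p = 5.8e-19) on the log2 scale. The lower genes included the collagen modifiers Plod2 (log2 fold change -2.97) and Lox (-2.01) and the transcriptional repressor Bhlhe41 (-2.37). Vegfa, the angiogenic growth factor, named here after its values were seen, was lower in Ly6g high MACRO libraries, at 86.0 ± 1.43 CPM against 169 ± 5.26 CPM in NL. In Ly6g low MACRO over NL 18 (47.4%) were higher and 13 (34.2%) lower, against 28.7% and 40.8% of all genes, from Narf at 2.76 to Bhlhe41 at -5.21.

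Around Ddit4, the mTORC1 list had 2 higher and 2 lower of 13 tested (15.4% each) between the MACRO groups. The shares of all genes were 9.29% and 15.9%. Sesn2, like Ddit4 a stress-induced mTORC1 inhibitor, rose by 0.99 (SE 0.049, edgeR adjusted p = 1.77e-13) and Rheb, the mTORC1 activator, by 0.61 (SE 0.046, edgeR adjusted p = 1.84e-10) on the log2 scale, the latter not called on FPKM. The complex subunits Mlst8 (log2 fold change -2.10) and Rptor (-0.98) fell. Against NL the list had 2 higher and 2 lower (15.4% each) in Ly6g high MACRO libraries, against 26.3% and 36.6% of all genes. In Ly6g low MACRO libraries 3 (23.1%) were higher and 4 (30.8%) lower, against 28.7% and 40.8% of all genes. The inhibitor Deptor fell in each, by 1.96 and by 2.54 on the log2 scale.

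Among 11 glucocorticoid-responsive genes, 2 (18.2%) were higher between the MACRO groups and 0 lower, against 9.29% and 15.9% of all genes. They were Dusp1 at 0.80 and Per1 at 0.69, and neither was called on FPKM. In Ly6g high MACRO over NL, 4 (36.4%) were higher and 5 (45.5%) lower, against 26.3% and 36.6% of all genes. In Ly6g low MACRO over NL, 6 (54.5%) were higher and 4 (36.4%) lower, against 28.7% and 40.8% of all genes. Anxa1 (log2 fold change 2.39 and 1.87), Tsc22d3 (1.51 and 1.48) and Fkbp5 (1.41 and 1.18) were highest in both, in that order. Among the lower genes were Zbtb16 (-1.78 and -1.69), Tgm2 (-1.78 and -1.72, from 1053 to 307 and 320 CPM) and Klf9 (-1.44 and -1.62). Fkbp5 lost its call in Ly6g low MACRO over NL on FPKM.

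Mitophagy genes around Bnip3 had 2 (14.3%) higher and 0 lower of 14 tested between the MACRO groups, against 9.29% and 15.9% of all genes. They were the cargo receptor Optn at 0.73 and Map1lc3b, an autophagosome protein, at 0.69, neither of them called on FPKM. In Ly6g high MACRO over NL, 6 (42.9%) were higher and 2 (14.3%) lower, against 26.3% and 36.6% of all genes. In Ly6g low MACRO over NL, 8 (57.1%) were higher and 2 (14.3%) lower, against 28.7% and 40.8% of all genes. The kinase Ulk1 (log2 fold change 1.30 and 1.56) and the mitochondrial receptor Fundc1 (1.17 and 1.69) were among the higher, and Gabarapl1 (-1.26 and -1.36) was lower.

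The list of other collagen prolyl and lysyl hydroxylases also holds genes that work with them, and is called collagen hydroxylases below. Of 8 tested, 1 (12.5%) was higher and 1 (12.5%) lower between the MACRO groups, against 9.29% and 15.9% of all genes. They were Plod2 (log2 fold change 0.62) and Crtap (-0.74). Each had a mean of at most 2.26 CPM in the MACRO groups and was named after its values were seen. Neither was called higher or lower without Ly6g high MACRO replicate 3 or Ly6g low MACRO replicate 3, and Plod2 also not without Ly6g low MACRO replicate 2. P4hb, the partner subunit of P4ha1, named here after its values were seen, went from 379 ± 10.9 to 564 ± 8.25 CPM between the MACRO groups without overlap. At 0.574 on the log2 scale (SE 0.033, edgeR adjusted p = 2.42e-12) it lay just under the fold threshold. Against NL, 0 of the 8 were higher in either MACRO group, against 26.3% and 28.7% of all genes. In Ly6g high MACRO libraries 5 (62.5%) were lower, against 36.6% of all genes, and in Ly6g low 6 (75%), against 40.8%. Serpinh1, the collagen chaperone, fell from 49.1 ± 2.25 CPM in NL to 5.60 ± 0.481 CPM in Ly6g high MACRO libraries. Of the relatives of Ndrg1, Ndrg2 (-2.33 and -2.38) and, named after its values were seen, Ndrg4 (-1.73 and -2.43) were lower in Ly6g high and Ly6g low MACRO over NL, and 0 of 3 were called between the MACRO groups. The epithelial, endothelial and fibroblast markers were also highest in NL, and their part was not tested.

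Genes that stand in more than 1 of these lists (Bnip3l, P4ha2, P4hb, Plod1 and Plod2) were counted in each. Of the genes in these lists, 6 did not pass the filter on low counts (Cited4, Car12, Stc2, Ddit4l, Calcoco2 and P4ha3). Siglecf was likewise counted in the marker lists of alveolar macrophages and of eosinophils, basophils and mast cells. Its mean was 38.7 CPM in NL, 31.4 CPM in Ly6g high MACRO and 29.5 CPM in Ly6g low MACRO libraries.

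**Figure D5:**
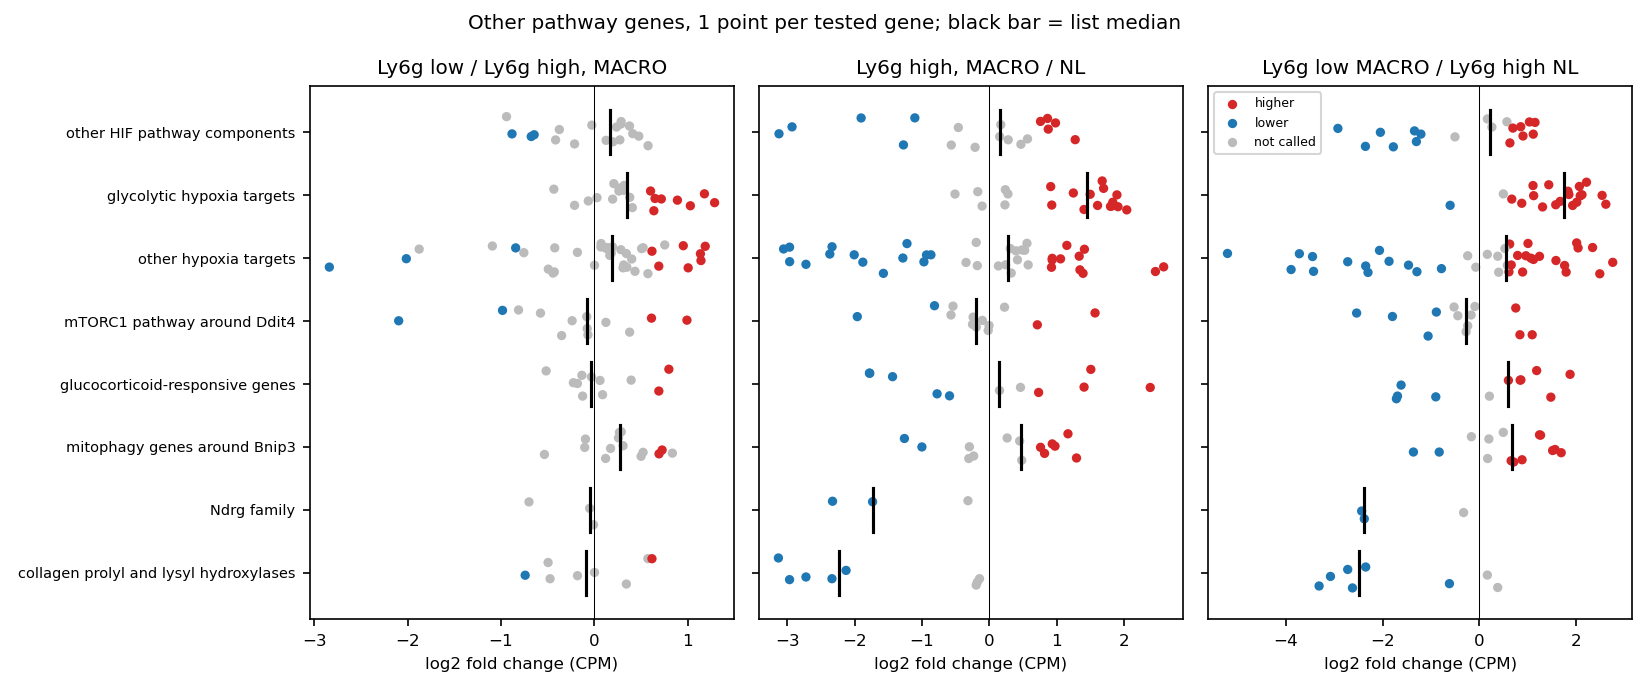
Log2 fold change from counts of every tested gene of the 8 lists in the 3 comparisons (1 point per gene, red called higher, blue called lower, grey not called; black bars are list medians). The glycolytic targets lie mostly to the right, with medians of 0.35, 1.45 and 1.75, while most genes of the collagen hydroxylase list lie to the left in both comparisons with NL.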

How the data were processed

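The 9 libraries of sorted neutrophils (3 groups of 3) were grouped from the sample titles. The description fields of the NL libraries name the Ly6g high group only. The authors deposited estimated counts without normalization and FPKM values, scaled for length and depth. The submitters' processing notes name mm10, and the aligner and counter are not given in the sources used here. Of the estimated counts, 37.9% were whole, and all were rounded. Counts were compared in R 4.3.3 with edgeR 4.0.16 (TMM, filterByExpr by group, quasi-likelihood F test, all 9 libraries in 1 fit), with Benjamini-Hochberg adjustment over 14108 genes. Calls needed an adjusted p of 0.05 or less and a log2 fold change over 0.58 in size. The SE was the log2 fold change divided by the root of F. FPKM were compared with limma 3.58.1 on log2(FPKM + 1), with FPKM of at least 1 in 3 libraries, which understates the change of low genes.

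The alternatives were DESeq2 1.42.0 and its size factors, upper-quartile normalization, other filters (none, or 10 counts in every library), a replicate block, fits of each comparison's own 6 libraries, a pseudocount of 0.1, other fold thresholds (none, or 1) and leaving out each library. Changes less the median of 12 neutrophil markers were added after the data were seen. An exact permutation test of 3 against 3 libraries cannot go below 0.1, so single values rest on the model. The 10 genes and all lists were chosen with earlier results of these data known. Named were all 10 genes, for each list and comparison from up to 3 called genes per direction of largest change with at least 10 CPM in the higher group, and 5 genes most like Egln3. A few genes that the rule or the marker lists hold are not reported here. The fits were tested on simulated data. Libraries with the same replicate number did not deviate together (correlations from -0.068 to 0.077), and they were not paired in the fit. With 3 libraries per group, these correlations cannot show whether such libraries came from the same mice. No 2 libraries were duplicates.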

Additional observations from a re-analysis of the deposited data

How the results depend on the processing

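With the replicate number as a block, the genes called were 3522 between the MACRO groups, 8856 in Ly6g high MACRO over NL and 9775 in Ly6g low MACRO over NL, and the block changed no call of the 10 genes and no count by over 1.5 times. Libraries of the same number are known to share only that number. Fits of each comparison's own 6 libraries moved no count of calls by over 1.5 times either. On FPKM, Egln2 between the MACRO groups turned to -0.18 (pseudocount of 1, with or without the filter) and -0.19 (0.1), and Ndrg1 to -0.14 in all of these. Less the median of the neutrophil markers, an alternative chosen after seeing the data, the difference in Ly6g high MACRO over NL turned to -1.17 for Arnt, -0.49 for Vhl, -1.20 for Egln1, -1.12 for Egln2, -0.14 for Bnip3, -0.72 for Ddit4 and -0.88 for P4ha1. It turned in Ly6g low MACRO over NL to -0.71 for Hif1a, -0.88 for Arnt, -0.19 for Vhl, -0.68 for Egln1, -1.21 for Egln2 and -0.026 for Ddit4. On log2(FPKM + 1), the counts between the MACRO groups became all calls 2223 (from 3560), all genes higher 320 (from 1310), glycolytic targets higher 3 (from 8), glycolytic targets lower 1 (from 0), other targets lower 5 (from 3), mTORC1 genes higher 1 (from 2), glucocorticoid genes higher 0 (from 2), glucocorticoid genes lower 1 (from 0), mitophagy genes higher 0 (from 2), mitophagy genes lower 1 (from 0) and collagen hydroxylases higher 0 (from 1). For Ly6g high MACRO over NL they were all genes higher 1426 (from 3712), the 10 genes higher 4 (from 8), other HIF components higher 1 (from 5), other HIF components lower 3 (from 5), glycolytic targets lower 2 (from 0), other targets higher 7 (from 11), mTORC1 genes higher 1 (from 2), mTORC1 genes lower 5 (from 2), mitophagy genes higher 2 (from 6), mitophagy genes lower 4 (from 2) and collagen hydroxylases lower 8 (from 5). For Ly6g low MACRO over NL they were all genes higher 1120 (from 4049), the 10 genes higher 5 (from 9), other HIF components higher 0 (from 7), other targets higher 8 (from 18), mTORC1 genes higher 0 (from 3), mTORC1 genes lower 9 (from 4), glucocorticoid genes higher 2 (from 6) and mitophagy genes higher 3 (from 8). Without a filter on FPKM these counts were the same except all calls at 2243 between the MACRO groups, all genes higher at 317 between the MACRO groups, all genes higher at 1436 in Ly6g high MACRO over NL, all genes higher at 1128 in Ly6g low MACRO over NL and mTORC1 genes lower at 10 in Ly6g low MACRO over NL. On log2(FPKM + 0.1), the counts between the MACRO groups became all genes higher 429 (from 1310), other HIF components lower 5 (from 3), glycolytic targets higher 4 (from 8), glycolytic targets lower 1 (from 0), other targets lower 7 (from 3), mTORC1 genes higher 1 (from 2), mTORC1 genes lower 4 (from 2), glucocorticoid genes higher 0 (from 2), glucocorticoid genes lower 1 (from 0), mitophagy genes higher 0 (from 2), mitophagy genes lower 1 (from 0), collagen hydroxylases higher 0 (from 1) and collagen hydroxylases lower 2 (from 1). Set against NL, Ly6g high MACRO libraries gave all genes higher 1650 (from 3712), the 10 genes higher 4 (from 8), other HIF components higher 1 (from 5), glycolytic targets lower 2 (from 0), mTORC1 genes higher 1 (from 2), mTORC1 genes lower 6 (from 2), mitophagy genes higher 2 (from 6), mitophagy genes lower 4 (from 2) and collagen hydroxylases lower 8 (from 5). Set against NL, Ly6g low MACRO libraries gave all genes higher 1246 (from 4049), the 10 genes higher 5 (from 9), other HIF components higher 0 (from 7), other targets higher 8 (from 18), mTORC1 genes higher 0 (from 3), mTORC1 genes lower 9 (from 4), glucocorticoid genes higher 2 (from 6) and mitophagy genes higher 3 (from 8). Without a fold-change threshold, the counts between the MACRO groups became all calls 7868 (from 3560), all genes higher 3686 (from 1310), all genes lower 4182 (from 2250), other HIF components higher 8 (from 0), other HIF components lower 6 (from 3), glycolytic targets higher 16 (from 8), glycolytic targets lower 2 (from 0), other targets higher 21 (from 7), other targets lower 7 (from 3), mTORC1 genes lower 4 (from 2), glucocorticoid genes lower 4 (from 0), mitophagy genes higher 10 (from 2), mitophagy genes lower 1 (from 0), collagen hydroxylases higher 3 (from 1) and collagen hydroxylases lower 2 (from 1). With Ly6g high MACRO over NL the counts were all genes higher 5629 (from 3712), other HIF components higher 9 (from 5), other HIF components lower 8 (from 5), glycolytic targets lower 2 (from 0), other targets higher 21 (from 11), mTORC1 genes lower 6 (from 2), mitophagy genes lower 5 (from 2) and collagen hydroxylases lower 8 (from 5). With Ly6g low MACRO over NL the counts were mTORC1 genes lower 9 (from 4) and collagen hydroxylases higher 2 (from 0). With a threshold of 1, the counts between the MACRO groups became all calls 1305 (from 3560), all genes higher 342 (from 1310), all genes lower 963 (from 2250), the 10 genes higher 3 (from 6), other HIF components lower 0 (from 3), glycolytic targets higher 3 (from 8), other targets higher 4 (from 7), mTORC1 genes higher 0 (from 2), mTORC1 genes lower 1 (from 2), glucocorticoid genes higher 0 (from 2), mitophagy genes higher 0 (from 2), collagen hydroxylases higher 0 (from 1) and collagen hydroxylases lower 0 (from 1). Counts in Ly6g high MACRO over NL became all genes higher 1900 (from 3712), the 10 genes higher 4 (from 8), other HIF components higher 1 (from 5), mTORC1 genes higher 1 (from 2), mTORC1 genes lower 1 (from 2), glucocorticoid genes lower 3 (from 5) and mitophagy genes higher 2 (from 6). Counts in Ly6g low MACRO over NL became all genes higher 2285 (from 4049), other HIF components higher 3 (from 7), glycolytic targets lower 0 (from 1), mTORC1 genes higher 1 (from 3), glucocorticoid genes higher 3 (from 6), mitophagy genes higher 5 (from 8) and mitophagy genes lower 1 (from 2). With DESeq2 size factors, the counts between the MACRO groups became mitophagy genes higher 4 (from 2) and collagen hydroxylases higher 2 (from 1). For Ly6g low MACRO over NL they were glycolytic targets lower 0 (from 1). With DESeq2, the counts between the MACRO groups became collagen hydroxylases higher 2 (from 1). For Ly6g high MACRO over NL they were other HIF components lower 3 (from 5). Set against NL, Ly6g low MACRO libraries gave glycolytic targets lower 0 (from 1). Without a filter on counts, the counts between the MACRO groups became collagen hydroxylases higher 0 (from 1). With upper-quartile normalization, the counts in Ly6g high MACRO over NL became the 10 genes higher 5 (from 8), glycolytic targets lower 1 (from 0), mTORC1 genes higher 1 (from 2) and mTORC1 genes lower 4 (from 2). With 10 counts in every library, the counts in Ly6g high MACRO over NL became the 10 genes higher 5 (from 8), other HIF components lower 3 (from 5), glycolytic targets lower 1 (from 0), other targets lower 8 (from 14), mTORC1 genes higher 1 (from 2), mTORC1 genes lower 4 (from 2), mitophagy genes lower 1 (from 2) and Ndrg relatives lower 1 (from 2). With Ly6g low MACRO over NL the counts were other HIF components lower 4 (from 7), other targets lower 7 (from 13) and Ndrg relatives lower 1 (from 2). Leaving out each library in turn kept the 10 genes at 6, 8 and 9 called higher and 0 lower in the 3 comparisons. Genes called ranged from 3387 to 3613 between the MACRO groups, from 8875 to 9081 in Ly6g high MACRO over NL and from 9805 to 9983 in Ly6g low MACRO over NL. MTORC1 genes lower between the MACRO groups ran from 2 to 4, at the far end without Ly6g low MACRO replicate 2. Mitophagy genes lower between the MACRO groups ran from 0 to 1, at the far end without Ly6g high MACRO replicate 3. Collagen hydroxylases higher between the MACRO groups ran from 0 to 1, at the far end without Ly6g high MACRO replicate 3, Ly6g low MACRO replicate 2 and Ly6g low MACRO replicate 3. Collagen hydroxylases lower between the MACRO groups ran from 0 to 1, at the far end without Ly6g high MACRO replicate 3 and Ly6g low MACRO replicate 3. Other HIF components lower in Ly6g high MACRO over NL ran from 3 to 5, at the far end without Ly6g high MACRO replicate 1. Mitophagy genes lower in Ly6g high MACRO over NL ran from 1 to 2, at the far end without Ly6g high MACRO replicate 3. Glycolytic targets lower in Ly6g low MACRO over NL ran from 0 to 1, at the far end without Ly6g low MACRO replicate 1. Apart from the fold thresholds and the filters, whose construction sets the number of calls, the cause of these changes was not tested.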
